A study of Mus musculus with 36 samples.

Results

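The interferon response and antigen presentation genes described here are 34 mouse genes chosen by name for their known roles rather than by a threshold on measured values. They comprise 4 transcriptional regulators (Stat2, Irf1, Irf7 and Irf9) and 4 RNA sensors and modifiers of signalling (Ifih1, Ddx58, Trim25 and Usp18). They include 14 interferon-induced effectors (Isg15, Ifit1, Ifit2, Ifit3, Ifi35, Oas1a, Oasl1, Rsad2, Bst2, Rtp4, Ifitm1, Ifitm3, Parp14 and Xaf1). The antigen presentation genes are 8 genes of MHC class I and peptide loading (H2-K1, H2-D1, B2m, Tap1, Tap2, Tapbp, Psmb8 and Psmb9) and 4 MHC class II genes (Cd74, H2-Aa, H2-Ab1 and H2-Eb1). The count tables held 20181 genes for Lrig1 GL cells and 22587 for Lgr5 GL cells, and 27 and 29 members respectively had values in them, 26 of these in both. Ifit3, Oas1a, Oasl1 and Rtp4 were not analysed here in either population. Ifit1, Ifit2 and Rsad2 were analysed in Lgr5 GL cells and H2-Aa in Lrig1 GL cells.

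Interferons are secreted cytokines that act through cell surface receptors and Janus kinases. Type I and type III interferons act on interferon-stimulated response elements (ISREs) through a complex that holds STAT2 and IRF9, whereas interferon gamma acts on gamma-activated sites (GAS) and through IRF1. The induced genes restrict viruses, and several of them build the route by which peptides cut by the immunoproteasome are pumped into the endoplasmic reticulum, loaded on MHC class I and shown to T cells. MHC class II in the epidermis is best known from Langerhans cells, the resident antigen-presenting cells.

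The study labelled hair follicle cells in Lrig1- or Lgr5-EGFP-ires-CreERT2 mice that carried Rosa26-fl/STOP/fl-tdTomato, with hydroxytamoxifen applied once to the tail skin before wounding in every group, controls included. Cre was driven from the Lrig1 locus, active at the junctional zone of the follicle, or from the Lgr5 locus, active in the lower follicle, so that the genetically labelled (GL) cells comprise the cells marked at that time and all their progeny. Tail skin received a full-thickness wound at 0w and an overlapping one at 8w, and tdTomato+ epidermal cells were sorted from an area that took in wound bed and distal follicles. Sorting took place in uninjured skin (0w), at 4 times after the first wound (written 1w pw1 for its first week, and likewise 2w, 4w and 8w), and 1w into the second healing (1w pw2). Small pools of these cells gave full-length, oligo(dT)-primed RNA-seq libraries, 3 for each population and time point, 36 in all.

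The libraries held 765252 to 3365670 counts in Lrig1 GL cells and 1297800 to 6960540 in Lgr5 GL cells, in which the transcript Gm12415 took up to 52.1%. Of the keratinocyte markers, 11 of 11 had values in both populations. The Lrig1 locus is also active in some fibroblasts, and the fibroblast markers with values (5 and 6 of 6) summed to 2.52 to 89.6 CPM in Lrig1 GL and 54.9 to 378 CPM in Lgr5 GL libraries. Values are given as CPM (counts scaled to a common library total) on each population's TMM scale, where 3 counts correspond to 1.01 to 3.39 CPM in Lrig1 GL and 0.389 to 2.92 CPM in Lgr5 GL libraries. Log CPM values of libraries of 1 group correlated across genes with Pearson's r of 0.682 to 0.872 and 0.727 to 0.904 respectively. The published description gives mice as the unit of replication, and the labels do not tie single libraries to mice. The p-values therefore measure the spread between libraries within groups, estimated over all groups of a fit. The 3 Lrig1 GL libraries at 8w pw1 stood apart in mitochondrial counts, at 10.9% to 14.4% against 3.15% to 8.99% in the other 15, and their keratinocyte markers summed to 21078 to 29835 CPM against 28487 to 56259. In such pools, fewer cells with a transcript and less of it per cell cannot be told apart.

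Promoter sequence shows which members carry exact core matches to the elements of this pathway close to their start. In the 300 bases around the RefSeq transcript starts (GRCm38.p6, 250 before and 50 after), a core ISRE (GAAANNGAAA on either strand) was found in 11 of the 28 members with a promoter entry, 39.3%, against 3.99% of all 27025 genes with an entry. A core GAS (TTCNNNGAA, its own reverse complement) was found in 7 of 28, 25.0%, against 9.55% of all genes. The ISRE was found in 7 of 12 effectors, 2 of 3 sensors, 1 of 4 regulators, 1 of 7 class I members and 0 of 2 class II members. The following stretches, read 5′ to 3′ on the strand of the gene with the ISRE cores in capitals, are shown for the 2 abundant members that hold it, Ifitm3 and B2m, and for 3 effectors that hold it and had few or no counts, Isg15, Ifit1 and Bst2.
Ifitm3, chr7:141010715-141010744, minus strand: agGAAAAGGAAActtctgaGAAACCGAAAc
B2m, chr2:122147528-122147577, plus strand: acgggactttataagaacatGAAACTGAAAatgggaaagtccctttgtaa
Isg15, chr4:156200855-156200916, minus strand: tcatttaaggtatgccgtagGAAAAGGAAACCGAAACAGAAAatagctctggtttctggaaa
Ifit1, chr19:34640765-34640833, plus strand: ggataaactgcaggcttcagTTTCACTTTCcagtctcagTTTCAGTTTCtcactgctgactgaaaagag
Bst2, chr8:71537567-71537622, minus strand: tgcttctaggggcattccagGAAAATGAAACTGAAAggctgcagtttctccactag
The Ifitm3 stretch begins at the first transcribed base, and the others end before the start of transcription. Cores that overlap are merged in one run of capitals for Isg15, with 3 cores, and Bst2, with 2, and a GAS core overlaps an ISRE core in Ifitm3 and in Bst2. For the GAS, whose core is in capitals, the regulator Irf1 and the immunoproteasome subunit Psmb8 are shown.
Irf1, chr11:53769904-53769952, plus strand: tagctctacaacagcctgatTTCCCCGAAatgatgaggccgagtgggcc
Psmb8, chr17:34198078-34198126, plus strand: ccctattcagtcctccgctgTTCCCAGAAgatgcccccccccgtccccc
A match describes the letters of these windows only, and binding was not measured here. Variants of the cores and sequence outside the windows were not searched, so a member without a match is not shown to lack the element.

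Per kilobase of exon, 4 members stood far above the rest in both populations. In Lrig1 GL cells the mean level over the 18 libraries was 485 CPM per kb for Ifitm3, a membrane protein that blocks the entry of enveloped viruses, 314 for B2m, the invariant light chain of class I, 152 for H2-D1 and 127 for H2-K1, the classical class I heavy chains. In Lgr5 GL cells the means were 179, 172, 126 and 57.8 CPM per kb in the same order, which rests on the wound time points. Before injury B2m was highest in both populations, with 388 CPM per kb in Lrig1 GL cells, above 341 for Ifitm3, 139 for H2-D1 and 133 for H2-K1. At 0w in Lgr5 GL cells B2m stood at 188, H2-D1 at 103, Ifitm3 at 69.7 and H2-K1 at 43.1 CPM per kb. Over all 18 libraries every other member lay at or below the 21.6 and 29.8 CPM per kb of Tapbp, which encodes the loading factor tapasin. The H2 genes have near-identical relatives and the Ifitm genes are a family side by side on chromosome 7, so that reads may be shared between relatives and their levels are uncertain to that extent.

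Few of the classical interferon-induced effectors were detectable at this depth. At least 3 counts in all 18 libraries were reached by 10 members of the Lrig1 and 11 of the Lgr5 population, 7 of them class I members in each. Isg15, the ubiquitin-like modifier that marks an interferon response, had 0 counts in 14 of 18 Lrig1 GL libraries and in 10 of 18 Lgr5 GL libraries. Bst2, which tethers budding virions, had 0 counts in 12 libraries of the Lrig1 and 9 of the Lgr5 population, and Ifit1, which binds foreign RNA caps, in 14 of 18 Lgr5 GL libraries. Single libraries stood apart, with 36 Isg15 counts in one 2w pw1 library of Lrig1 GL cells and 32 Ifit1 counts in one 2w pw1 library of Lgr5 GL cells. The filter on low counts passed 22 members in Lrig1 GL cells and 28 in the Lgr5 population, and some of these passed because of the group in which they were high.

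Ifitm3 was the member that changed across the time course, in both populations. Lgr5 GL libraries held 39.7, 50.01 and 52.04 CPM at 0w and at 275, 396 and 416 CPM at 1w pw1. It was at 37.2, 56.9 and 58.8 CPM at 2w, 46.9, 81.4 and 156 at 4w and 29.98, 58.1 and 117 at 8w pw1, and at 73.8, 121 and 123 CPM at 1w pw2. All 3 libraries at 1w pw1 lay above the other 15, and those at 1w pw2 lay above 0w and below 1w pw1. The log2 fold change at 1w pw1 against 0w was 2.94 (SE 0.47, edgeR adjusted p = 0.0136), in a contrast that called 1.29% of all genes. Across the course the adjusted p was 0.00747, with 1.13% of all genes called and 1 of 28 members. With 4 surrogate variables in the model neither call was kept (log2 fold change 2.60, edgeR adjusted p = 0.0672 at 1w pw1 and 0.182 across the course), and both were kept without any 1 of the 18 libraries.

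**Figure D1:**
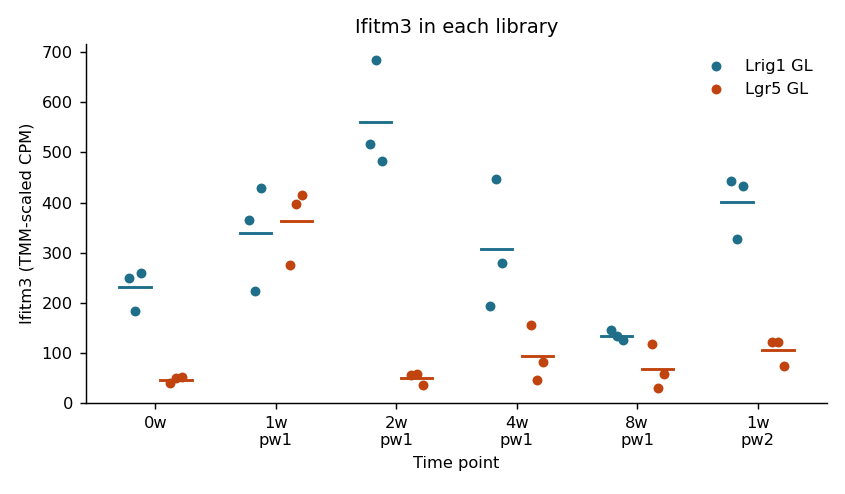
Ifitm3 in each of the 36 libraries, in TMM-scaled CPM on the vertical axis by time point on the horizontal axis, with points for libraries and bars for group means of 3. Lgr5 GL libraries reached 275, 396 and 416 CPM at 1w pw1, and Lrig1 GL libraries were lowest at 8w pw1 with 125, 133 and 145 CPM.

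In Lrig1 GL cells Ifitm3 began from a higher level and was highest at 2w pw1. Its changes were not shown to differ between the populations by edgeR's test in the main fit. Ifitm3 stood at 184, 249.9 and 259 CPM at 0w, 224, 364 and 429.8 at 1w pw1 and 482, 516 and 683 at 2w pw1. At 4w pw1 it was at 194, 280.5 and 447 CPM, at 8w pw1 at 125, 133 and 145 and at 1w pw2 at 327, 432 and 444 CPM. The 2w pw1 libraries lay above all others, the 8w pw1 libraries lay below all others, and the 1w pw2 libraries lay above 0w. The 8w pw1 libraries were also those with the highest mitochondrial share, whose part in their low Ifitm3 was not tested. Across the course Ifitm3 passed the test (edgeR adjusted p = 0.0307, 1 of 22 members, 1.63% of all genes), with its largest log2 fold change of 1.28 (SE 0.32) at 2w pw1. That call was lost without 8 of the 18 libraries taken singly (1w pw1 replicate 1, 2w pw1 a and b, 8w pw1 a, b and c, 1w pw2 replicates 2 and 3), where the edgeR adjusted p rose to between 0.05005 and 0.0951, after removal of a GC trend (0.0539) and with 5 surrogate variables (0.214). The log2 fold change was kept, at 1.11 to 1.38 without single libraries, 1.26 without the GC trend and 1.46 with surrogate variables. No single contrast against 0w passed, with edgeR adjusted p = 0.164 at 2w pw1, 0.152 at 8w pw1 for a log2 fold change of -0.78 and 0.19 at 1w pw2 for 0.79.

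The comparison of 1w pw2 with 1w pw1 and with 8w pw1 asks whether labelled cells respond otherwise when injured again. Lgr5 GL libraries held less Ifitm3 after the second wound than 1w after the first, without overlap, with a log2 fold change of -1.77 (SE 0.45) that missed the threshold (edgeR adjusted p = 0.0814). Lrig1 GL libraries of these 2 time points overlapped and differed by 0.24 (SE 0.31), while 1w pw2 lay above 8w pw1 without overlap by a log2 fold change of 1.57 (SE 0.32, unadjusted p = 0.000128, edgeR adjusted p = 0.354). DESeq2 and edgeR's likelihood ratio test called both the Lgr5 GL difference from 1w pw1 and the Lrig1 GL difference from 8w pw1. The difference between the populations in the change at 1w pw1 was -2.40 (Lrig1 GL minus Lgr5 GL, SE 0.56, edgeR adjusted p = 0.0664). That in the step between 1w pw1 and 1w pw2 was 2.07 (SE 0.56, adjusted p = 0.111). Neither passed the test, and the first passed without Lrig1 GL 0w replicate 2 (edgeR adjusted p = 0.0362).

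Over all members, 0 of 22 in Lrig1 GL cells passed edgeR's test in a single contrast against 0w, where 3.45% of all genes did in at least 1 of the 5 contrasts. At an unadjusted p under 0.05, 7 of 22 did, against 39.1% of all genes, and DESeq2 called 1, Ifitm3 at 2w pw1. In Lgr5 GL cells 1 of 28 passed, Ifitm3 (1.43% of all genes), and 8 of 28 had an unadjusted p under 0.05 (32.4%). DESeq2 called 3 there, Ifitm3, H2-D1 and H2-Ab1, all at 1w pw1. The shares of all genes given here are those of edgeR's quasi-likelihood test, and the shares that DESeq2 called are not given. In the contrasts of 1w pw2 with 1w pw1 and with 8w pw1, 0 members passed edgeR's test in either population (0.00699% and 0.266% of all genes). The counts at an unadjusted p under 0.05 were 4 of 22 (13.7%) and 5 of 28 (19.4%), and DESeq2 called 1 in Lrig1 GL cells, Ifitm3, and 2 in Lgr5 GL cells, Ifitm3 and Trim25. The median log2 fold change of the members tested was -0.52 at 1w pw2 against 0w in Lrig1 GL cells, beside -0.06 over all genes, and -0.08 to -0.01 at the other 4 time points. In Lgr5 GL cells it was 0.41 at 8w pw1, beside 0.01, and -0.22 to 0.05 at the others. Against 8w pw1 the median at 1w pw2 was -0.64 in Lrig1 GL cells, beside -0.01, and -0.28 in Lgr5 GL cells, beside -0.02.

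The other Ifitm member, Ifitm1, an antiviral membrane protein like Ifitm3, was measured from few counts. Lgr5 GL libraries held Ifitm1 at 2.698, 2.95 and 3.102 CPM at 0w, 4.89, 6.51 and 6.79 at 1w pw1 and 1.07, 1.69 and 2.39 at 2w pw1. Ifitm1 then stood at 0.972, 2.02 and 2.095 CPM at 4w pw1, 1.96, 2.68 and 4.42 at 8w pw1 and 2.26, 2.83 and 2.85 at 1w pw2. Its 1w pw1 libraries lay above all others and did not pass the test (log2 fold change against 0w 1.05, SE 0.68, edgeR adjusted p = 0.419). It failed the filter in Lrig1 GL cells, at 1 to 13 counts a library. Parp14, an ADP-ribosyltransferase, was at 0, 12.99 and 46.2 CPM at 0w, 0, 3.796 and 14.7 at 1w pw1 and 1.35, 5.36 and 17.004 at 2w pw1. Parp14 then stood at 0.795, 2.99 and 22.9 CPM at 4w pw1, 1.22, 6.97 and 30.9 at 8w pw1 and 0, 1.32 and 7.11 at 1w pw2 in Lrig1 GL cells, overlapping with 0w at every time point. In Lgr5 GL cells its 1w pw2 libraries, at 1.83, 2.20 and 2.26 CPM, lay below the 2.41, 9.76 and 26.98 CPM of 0w. There Parp14 had an unadjusted p under 0.05 in at least 1 contrast against 0w and did not pass edgeR's test. Ifi35 ranged from 3.08 to 35.8 CPM in Lrig1 GL and 4.19 to 33.3 CPM in Lgr5 GL cells, and Xaf1 from 0 to 32.3 and 0 to 10.1 CPM.

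Among the regulators, Irf9, the DNA-binding partner of STAT2, had the highest mean in both populations. Lrig1 GL libraries held Irf9 at 0, 6.405 and 20.3 CPM at 0w, 7.59, 19.4 and 46.4 at 1w pw1 and 3.72, 18.3 and 51.01 at 2w pw1. Irf9 then stood at 13.9, 17.3 and 18.3 CPM at 4w pw1, 7.65, 12.9 and 20.8 at 8w pw1 and 3.303, 7.89 and 16.8 at 1w pw2. Lgr5 GL libraries held Irf9 at 11.8, 28.6 and 30.7 CPM at 0w, 0.326, 5.96 and 11.9 at 1w pw1 and 11.4, 17.6 and 21.02 at 2w pw1. Irf9 then stood at 0, 16.8 and 41.7 CPM at 4w pw1, 7.51, 10.7 and 19.6 at 8w pw1 and 15.995, 16.6 and 30.3 at 1w pw2. Single libraries at or near 0 lay beside libraries above 20 CPM, and its largest log2 fold change, -2.0 at 1w pw1 in Lgr5 GL cells, had an SE of 1.01 (edgeR adjusted p = 0.295).

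The lowest mean among regulators with 10 or more counts belonged to Irf1, the interferon gamma-responsive factor, in Lrig1 GL cells and to Irf7, the amplifier of type I interferon production, in Lgr5 GL cells. Irf1 was at 0, 11.4 and 24.1 CPM at 0w, 7.59, 11.3 and 26.8 at 1w pw1 and 2.03, 4.47 and 16.4 at 2w pw1. Irf1 then stood at 0.498, 0.5099 and 21.5 CPM at 4w pw1, 0, 9.103 and 10.4 at 8w pw1 and 8.55, 9.35 and 14.6 at 1w pw2. Irf7 was at 2.07, 4.98 and 12.03 CPM at 0w, 0, 13.02 and 24.8 at 1w pw1 and 0.215, 3.67 and 7.83 at 2w pw1. Irf7 then stood at 0, 3.36 and 12.99 CPM at 4w pw1, 2.65, 6.94 and 7.56 at 8w pw1 and 0, 3.83 and 18.9 at 1w pw2. Both ranged widely within groups, and their groups overlapped with 0w at every time point. Irf7 had 0 counts in 11 of 18 Lrig1 GL libraries and failed the filter there. Stat2, the subunit that brings transcriptional activation to the complex with IRF9, ranged from 0 to 32.5 CPM in Lrig1 GL and 0.361 to 24.6 CPM in Lgr5 GL cells.

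The sensors stood lower at 1w pw1 than at 1w pw2 in Lgr5 GL cells. Trim25, the ubiquitin ligase that activates the RIG-I pathway, was at 15.8, 15.9 and 18.6 CPM at 0w, 4.24, 6.79 and 17.2 at 1w pw1 and 8.27, 23.2 and 34.6 at 2w pw1. Trim25 then stood at 9.41, 23.3 and 25.98 CPM at 4w pw1, 5.74, 9.96 and 15.4 at 8w pw1 and 30.1, 32.3 and 33.2 at 1w pw2. Usp18, which removes ISG15 and restrains receptor signalling, was at 0.454, 9.65 and 20.8 CPM at 0w, 0, 0.326 and 1.45 at 1w pw1 and 0, 0.644 and 5.22 at 2w pw1. Usp18 then stood at 0, 8.38 and 12.1 CPM at 4w pw1, 0, 0.453 and 14.1 at 8w pw1 and 1.88, 7.498 and 8.56 at 1w pw2. The 1w pw1 and 1w pw2 groups did not overlap for Trim25 and Usp18, nor for Ifih1, the long RNA sensor MDA5 (0, 0 and 8.31 against 15.2, 18.3 and 19.95 CPM), and Ddx58, the short RNA sensor RIG-I (3.61, 3.96 and 6.85 against 7.65, 7.66 and 13.2 CPM). All 4 were higher at 1w pw2 without overlap, as were 8 of the 28 members and 13.7% of all genes. In either direction the groups did not overlap for 10 of 28 members and 24.7% of all genes. None of the 4 sensors passed edgeR's test, with log2 fold changes of 0.97 to 3.07 and adjusted p of 0.184 for Trim25 to 0.438 for Ddx58, and 1 of 4, Trim25, had an unadjusted p under 0.05 (0.0113) and was called by DESeq2.

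**Figure D2:**
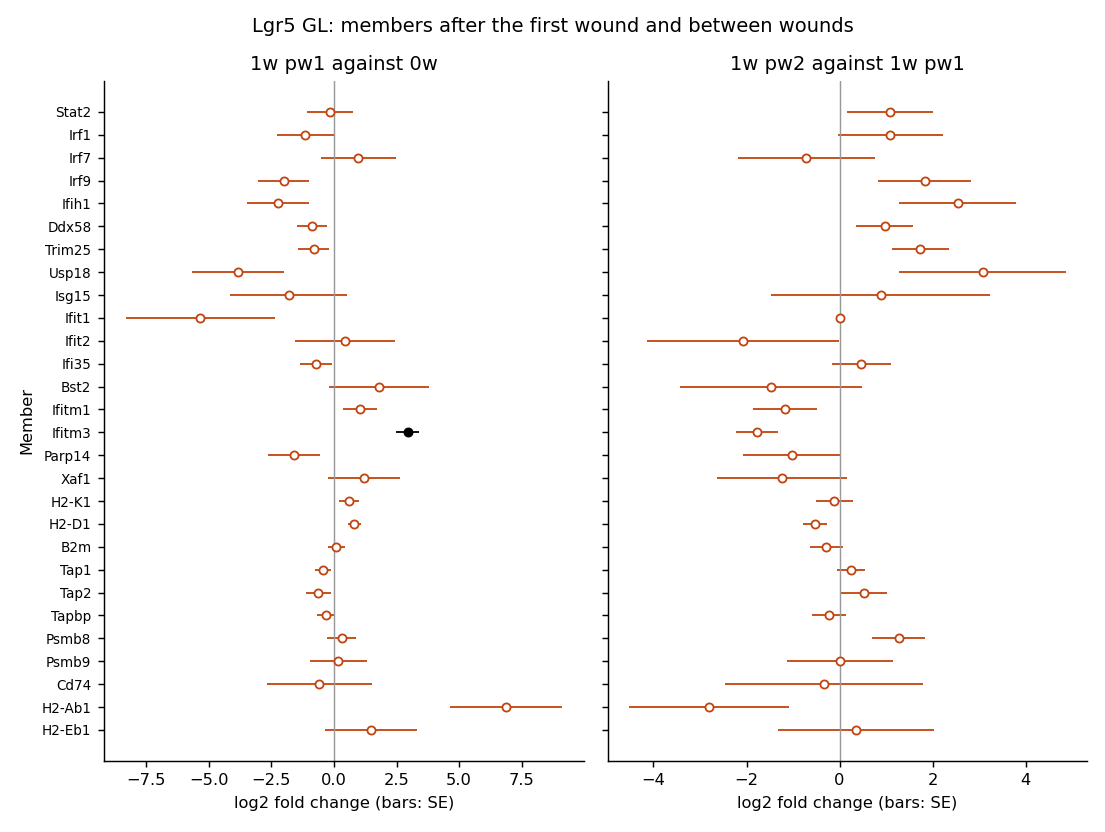
Log2 fold changes (horizontal axis, bars are standard errors) of the 28 members tested in Lgr5 GL cells, by member on the vertical axis, at 1w pw1 against 0w and at 1w pw2 against 1w pw1. The filled point is Ifitm3 at 2.94, which passed the test. The open points did not, and a point without a bar has no counts in either group.

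Ddx58 was highest at 8w pw1 in Lgr5 GL cells, where its libraries at 19.9, 27.5 and 43.3 CPM lay above all others (against 0w 1.77, SE 0.61, edgeR adjusted p = 0.723). Across the course its adjusted p was 0.115 in edgeR's main test, and DESeq2 called it. In Lrig1 GL cells Ddx58 also had its highest mean at 8w pw1, with 26.3, 29.9 and 30.02 CPM, which overlapped the 0 to 31.3 CPM of 0w. Ifih1 had its highest mean there too, at 37.4 CPM. These are the libraries with the highest mitochondrial share, whose part was not tested. Between 1w pw1 and 1w pw2, Lrig1 GL libraries overlapped for Ifih1, Ddx58, Trim25 and Usp18. The share of all genes is not given for this contrast, so this is not set against the Lgr5 GL counts. Trim25 in Lrig1 GL cells was at 15.4, 21.5 and 73.4 CPM at 0w, 22.8, 28.3 and 62.8 at 1w pw1 and 19.5, 32.2 and 47.3 at 2w pw1. Trim25 then stood at 7.14, 12.4 and 14.3 CPM at 4w pw1, 19.3, 21.4 and 21.5 at 8w pw1 and 8.49, 11.6 and 28.9 at 1w pw2. Usp18 was at 0, 0 and 8.93 CPM at 0w, 0, 11.3 and 58.6 at 1w pw1 and 0, 2.03 and 44.7 at 2w pw1. Usp18 then stood at 0, 1.53 and 6.97 CPM at 4w pw1, 0, 0.611 and 3.64 at 8w pw1 and 0, 0 and 0.658 at 1w pw2. The 4w pw1 libraries of Trim25 lay below 0w (log2 fold change -1.70, SE 0.68, edgeR adjusted p = 0.536), and Usp18 rested on single libraries, with 8 of 18 at 0 counts. The difference between the populations in the step between 1w pw1 and 1w pw2 was -2.92 for Trim25 (SE 0.90, edgeR adjusted p = 0.167).

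Of the class I members, 0 of 8 passed edgeR's test in either population, where 3.45% and 1.43% of all genes did in at least 1 contrast against 0w. At an unadjusted p under 0.05 in these contrasts, 3 of 8 did in Lrig1 GL cells (B2m, Psmb8 and Tap2), beside 39.1% of all genes. In Lgr5 GL cells 4 of 8 did (B2m, H2-D1, Psmb8 and Tapbp), beside 32.4%. H2-D1 was at 255, 266 and 276 CPM at 0w, 317, 463 and 626 at 1w pw1 and 296, 299.6 and 418 at 2w pw1. H2-D1 then stood at 234, 262 and 284 CPM at 4w pw1, 229, 282 and 349 at 8w pw1 and 269.6, 313 and 394 at 1w pw2 in Lgr5 GL cells. The 1w pw1 libraries lay above 0w without overlap, by a log2 fold change of 0.82 (SE 0.27, edgeR adjusted p = 0.117), which DESeq2 called. Lrig1 GL libraries held H2-D1 at 269, 367 and 441 CPM at 0w, 299, 339.8 and 526 at 1w pw1 and 156, 252 and 1058 at 2w pw1. H2-D1 then stood at 314, 555 and 588 CPM at 4w pw1, 190.4, 344 and 368 at 8w pw1 and 239, 377 and 396 at 1w pw2. One 2w pw1 library of Lrig1 GL cells was the highest of all for H2-D1 and also for H2-K1, at 1105 CPM, Psmb8 and Psmb9.

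Psmb8, an immunoproteasome subunit with a GAS core near its start, had the largest fold changes of the class I members in both populations. In Lrig1 GL cells that rank rests on 2w pw1, its highest group mean, where 1 library at 39.7 CPM lay beside 8.49 and 11.8. Lgr5 GL libraries held Psmb8 at 4.83, 10.2 and 10.2 CPM at 0w, 7.18, 11.9 and 12.5 at 1w pw1 and 6.49, 7.18 and 13.5 at 2w pw1. Psmb8 then stood at 4.03, 13.8 and 21.4 CPM at 4w pw1, 18.8, 27.8 and 31.8 at 8w pw1 and 19.2, 22.97 and 33.8 at 1w pw2. Lrig1 GL libraries held Psmb8 at 5.76, 6.16 and 9.34 CPM at 0w, 6.64, 6.79 and 11.1 at 1w pw1 and 8.49, 11.8 and 39.7 at 2w pw1. Psmb8 then stood at 13.4, 17.5 and 21.4 CPM at 4w pw1, 13.8, 15.3 and 20.9 at 8w pw1 and 5.61, 8.49 and 15.8 at 1w pw2. The 8w pw1 libraries lay above 0w in both populations without overlap, by log2 fold changes of 1.63 (Lgr5 GL, SE 0.58, edgeR adjusted p = 0.737) and 1.22 (SE 0.69, adjusted p = 0.298), and neither passed. Psmb9, its partner subunit, had the lowest level of the class I members, from 0 to 21.4 CPM in Lrig1 GL and 0 to 12.5 CPM in Lgr5 GL cells, with 1 and 2 libraries at 0 counts.

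**Figure D3:**
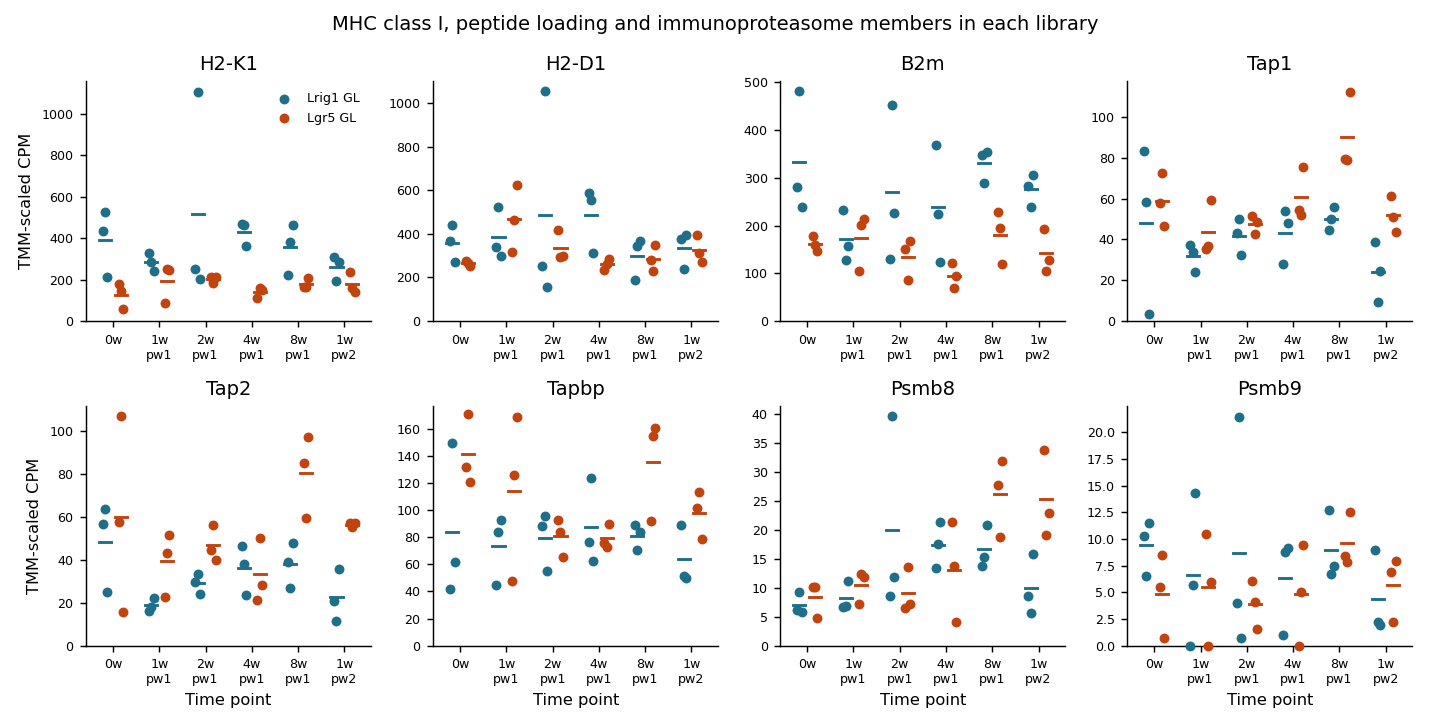
The 8 class I and peptide loading members in each library, in TMM-scaled CPM on the vertical axes by time point, with points for libraries and bars for means of 3. Psmb8 lay at 19.2, 22.97 and 33.8 CPM at 1w pw2 in Lgr5 GL cells and at 5.61, 8.49 and 15.8 CPM in Lrig1 GL cells.

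Of the peptide transporter subunits, Tap2 had 1w pw1 libraries below 0w in Lrig1 GL cells, and Tap1 did not. Tap2 was at 24.98, 56.5 and 63.8 CPM at 0w, 16.1, 18.1 and 22.2 at 1w pw1 and 23.99, 29.5 and 33.4 at 2w pw1. Tap2 then stood at 23.5, 38.1 and 46.3 CPM at 4w pw1, 26.9, 38.96 and 47.7 at 8w pw1 and 11.6, 20.8 and 35.5 at 1w pw2. The 1w pw1 libraries lay below 0w without overlap (log2 fold change -1.36, SE 0.52, edgeR adjusted p = 0.336). Tap2 in Lgr5 GL cells was at 15.5, 57.6 and 107 CPM at 0w, 22.8, 43.02 and 51.7 at 1w pw1 and 39.8, 44.6 and 56.3 at 2w pw1. Tap2 then stood at 21.4, 28.2 and 50.3 CPM at 4w pw1, 59.2, 84.8 and 97.04 at 8w pw1 and 55.2, 56.9 and 56.9 at 1w pw2, overlapping with 0w throughout. Tap1 in Lrig1 GL cells was at 3.202, 58.1 and 83.1 CPM at 0w, 24.01, 33.9 and 37.01 at 1w pw1 and 9.35, 24.3 and 38.7 at 1w pw2, with log2 fold changes of -0.61 (SE 0.72, edgeR adjusted p = 0.816) and -1.002 (SE 0.72, adjusted p = 0.475). B2m at 1w pw1 in Lrig1 GL cells, at 128, 156 and 233 CPM against 239.5, 280.2 and 482 at 0w, also lay below without overlap (log2 fold change -0.96, SE 0.44, adjusted p = 0.434). The remaining ranges over 18 libraries were 194 to 1105 CPM for H2-K1, 3.202 to 83.1 for Tap1 and 41.6 to 149 for Tapbp in Lrig1 GL cells. They were 56.2 to 249, 35.2 to 112 and 47.9 to 171 CPM in the Lgr5 population.

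Of the class II members, Cd74 and H2-Ab1 were at or near 0 counts in Lrig1 GL libraries at 0w, 8w pw1 and 1w pw2 and reached their highest counts at 2w pw1. Cd74, the invariant chain that guides class II through the cell, named here after its values were seen, had 0 counts in all libraries at 0w, 8w pw1 and 1w pw2, 0, 0 and 8 at 1w pw1, 19, 19 and 32 at 2w pw1 and 0, 6 and 7 at 4w pw1. Against a floor of 3 counts over the 0w group, 2w pw1 was at least 20.5-fold higher. Cd74 passed the filter on low counts only through the 2w pw1 group, where it was high, so its p-value is not given as support. Cd74 still enters the counts of members with an unadjusted p under 0.05 and of members called by the likelihood ratio test. H2-Ab1, a class II beta chain, had 0, 5 and 40 counts at 1w pw1, 0, 8 and 75 at 2w pw1 and 0, 5 and 15 at 4w pw1, with 0 in all 3 libraries at 0w and 1w pw2 and 0, 0 and 2 at 8w pw1. H2-Aa, the alpha chain, reached 3 counts in 3 of 18 Lrig1 GL libraries, 2 of them at 2w pw1, and H2-Eb1, another beta chain, ranged from 0 to 31 counts.

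H2-Ab1 in Lgr5 GL cells stood at 0, 0 and 2 counts at 0w, 0, 10 and 229 at 1w, 0, 0 and 1 at 2w, 0, 1 and 9 at 4w, 7, 16 and 45 at 8w pw1 and 0, 1 and 79 at 1w pw2. One library carried 229 of the counts at 1w pw1, and the log2 fold change there was 6.88 (SE 2.23, edgeR adjusted p = 0.117) and 2.24 without it. DESeq2 called it with all libraries. Cd74 and H2-Eb1 stayed between 0 and 19 counts in Lgr5 GL libraries. Of 8 Langerhans and dendritic cell markers, 0 had values in Lrig1 GL cells and 4 in the Lgr5 population, summing to 0.361 to 18.5 CPM. Of 10 leukocyte and macrophage markers, 4 had values in each, summing to 0 to 34.5 CPM in Lrig1 GL cells, with 1.35 to 12.5 at 2w pw1, and to 0.361 to 52.4 CPM in Lgr5 GL cells, with 0.361 to 9.62 at 1w pw1. The part of other cell types in the class II counts was not tested.

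**Figure D4:**
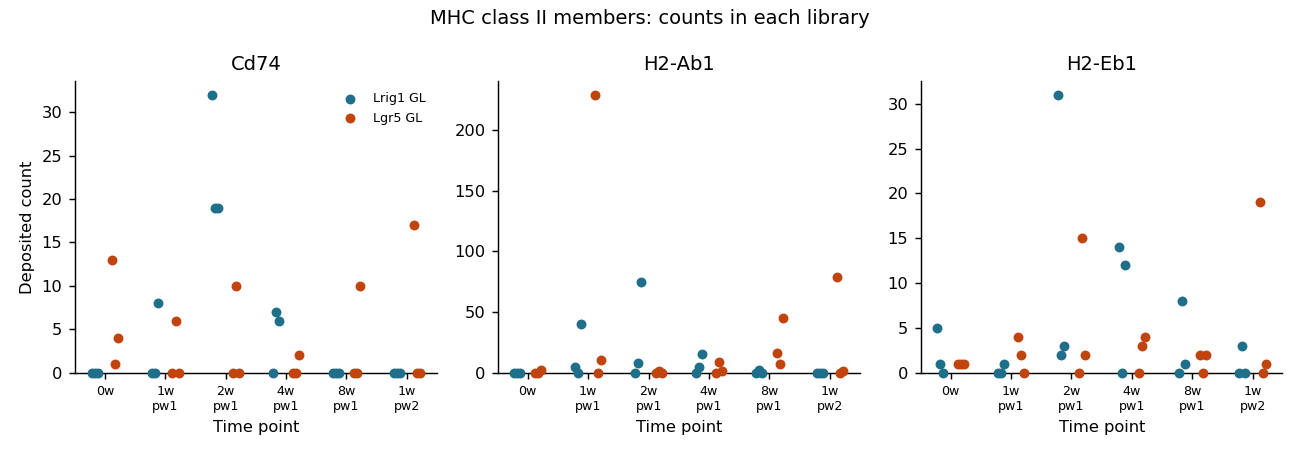
Deposited counts (vertical axes) of Cd74, H2-Ab1 and H2-Eb1 in each library by time point (horizontal axes), 1 point a library. One Lgr5 GL library at 1w pw1 held 229 H2-Ab1 counts, and the Lrig1 GL libraries at 2w pw1 held 19, 19 and 32 Cd74 counts.

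Levels of the 25 members tested in both populations were compared at each time point in 1 model, where population and count table cannot be told apart. Ifitm3 was higher in Lrig1 GL cells before injury, with 160.1, 216 and 231 against 44.3, 55.3 and 58.1 CPM on the joint scale, a log2 difference of 1.94 (SE 0.41, edgeR adjusted p = 0.00759, 1 of 25 members and 2.90% of all genes). It was also higher at 2w pw1, with 424, 456 and 609 against 41.2, 64.3 and 65.2 CPM (3.12, SE 0.42, adjusted p = 7.57e-05, 1 of 25 members and 1.90% of all genes). At 1w pw1 the populations overlapped, with 198, 317 and 372 against 316, 450.3 and 458 CPM (-0.46, SE 0.39, adjusted p = 0.529). At 1w pw2 Ifitm3 was again higher in Lrig1 GL cells, with 299, 394 and 397 against 84.1, 135 and 137 CPM (1.61, SE 0.40, adjusted p = 0.0135), a call lost without Lgr5 GL 1w pw2 replicate 3 (adjusted p = 0.0919). The differences at 4w pw1 (1.31, SE 0.40, edgeR adjusted p = 0.062) and 8w pw1 (0.69, SE 0.40, adjusted p = 0.255) did not pass. With 9 surrogate variables the difference at 2w pw1 passed and those at 0w and 1w pw2 did not (edgeR adjusted p = 0.0621 and 0.441), while their log2 differences were larger, at 3.08 and 3.18.

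Tap2 was lower in Lrig1 GL than in Lgr5 GL cells at 1w pw2, with 10.6, 18.6 and 32.4 against 61.6, 63.5 and 64.8 CPM on the joint scale (-1.64, SE 0.50, edgeR adjusted p = 0.0443, 2 of 25 members and 6.83% of all genes). Ifitm1 also passed at 8w pw1 (edgeR adjusted p = 0.0466, 1 of 25 members and 12.5% of all genes), with 10, 11 and 13 counts in Lgr5 GL libraries and 1, 2 and 2 in Lrig1 GL libraries. The latter are all under the floor of 3 counts and Ifitm1 failed the filter in Lrig1 GL cells alone. No fold is therefore given, and the call is not used as a difference between the populations. Both calls lay close to the threshold. That of Tap2 was lost without 18 of the 36 libraries taken singly (edgeR adjusted p up to 0.252) at log2 differences of -2.12 to -1.30 over all 36 fits. Removal of a GC trend brought the Tap2 difference to -0.83 and surrogate variables to -1.12 (edgeR adjusted p = 0.427 and 0.868). With no filter on low counts the Tap2 call was also lost (edgeR adjusted p = 0.0537). The call of Ifitm1 was lost without 19 libraries taken singly (edgeR adjusted p up to 0.162) and after the GC trend (0.202). It was also lost with surrogate variables (edgeR adjusted p = 0.819) and in DESeq2 (adjusted p = 0.0745). At 8w pw1 the populations did not overlap for 12 of 25 members and 40.9% of all genes, and at 1w pw2 for 10 of 25 and 38.0%. In all, 3 of 25 members, Ifitm1 included, and 20.3% of all genes passed for level at 1 or more of the 6 time points.

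Between the populations, 0 of 25 members passed edgeR's test for a different change at any of the 6 contrasts, where 1.32% of all genes did. At an unadjusted p under 0.05, 8 of 25 did, against 43.0% of all genes. DESeq2 called 3 members, Ifitm3, Usp18 and Trim25, and its share of all genes is not given.

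The wider pathway was followed in 84 further genes of signalling, interferon induction and antigen presentation, of which 52 were tested in Lrig1 GL cells and 55 in the Lgr5 population. In Lrig1 GL cells 4 of 52 passed edgeR's test in a contrast against 0w, beside 3.45% of all genes, all at 8w pw1 or 1w pw2. The calls at 8w pw1 rest on the 3 libraries with 10.9% to 14.4% mitochondrial counts, whose part was not tested. Jak1, the kinase shared by all interferon receptors, was at 50.4, 97.4 and 140.1 CPM at 0w, 236, 242 and 359 at 8w pw1 and 271, 273 and 282 at 1w pw2, log2 fold changes of 1.54 (SE 0.36, edgeR adjusted p = 0.0341) and 1.52 (SE 0.36, adjusted p = 0.0471). Erap1, the aminopeptidase that trims class I peptides, was at 11.8, 12.2 and 19.2, 70.8, 71.3 and 78.6 and 55.2, 77.6 and 80.4 CPM at these time points, log2 fold changes of 2.35 and 2.30 (edgeR adjusted p = 0.0245 and 0.036). Pdia3, a chaperone of the loading complex, rose to 517, 883 and 1386 CPM at 1w pw2 from 254, 268 and 291 at 0w (1.78, SE 0.32, adjusted p = 0.0191). Psme2, a subunit of the proteasome activator PA28, fell to 29.9, 50.6 and 57.4 CPM at 8w pw1 from 100.3, 121 and 122 (-1.31, SE 0.33, adjusted p = 0.0444). Leaving out single libraries ended each of these calls in at least 3 of 18 cases, and 2 of the 4, Pdia3 and Psme2, also passed across the course.

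In Lgr5 GL cells 3 of 55 passed, beside 1.43% of all genes, all at 1w pw1. Ly6e, an interferon-induced surface protein, was at 85.1, 96.2 and 116 CPM at 0w and 268, 417 and 636 at 1w pw1 (2.15, SE 0.41, edgeR adjusted p = 0.0197), the same direction and time point as Ifitm3, and it also passed across the course. Mavs, the mitochondrial adaptor of Ifih1 and Ddx58, fell from 29.7, 33.1 and 59.4 to 2.28, 10.3 and 13.02 CPM (-2.27, SE 0.51, adjusted p = 0.038). Lgals3bp, a secreted glycoprotein, fell from 5.603, 14.5 and 28.9 to 0, 0 and 0.181 CPM (edgeR adjusted p = 0.0351). It was listed with the interferon-induced genes, like Ly6e, and went in the opposite direction to Ly6e and Ifitm3. These calls were lost without 3 to 9 of the 18 libraries taken singly.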

How the data were processed

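Gene expression was measured by RNA-seq in 36 libraries of sorted tdTomato+ tail epidermal cells, 3 for each of 2 populations and 6 time points. The deposited values are raw counts per gene, 1 table a population. The authors trimmed reads with Trim Galore 0.5.0, aligned them to mm10 (GRCm38) with HISAT2 and counted them with featureCounts. All columns were used, of which 15 matched a single sample's label and 21 matched a group only (named a, b and c here).

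Genes were filtered with filterByExpr by group (minimum count 10), scaled by TMM and tested with edgeR 4.0.16 (quasi-likelihood F-test, R 4.3.3) in each population and in 1 joint fit for differences between populations. P-values were adjusted by Benjamini-Hochberg over all 14306, 18025 and 16153 genes tested. Calls required an adjusted p under 0.05 and, across the time course, also a log2 fold change above 1 in size. Standard errors were derived from the F statistic. Exon length and GC content came from the GENCODE annotation of GRCm38, and promoter windows from RefSeq (GRCm38.p6). Alternatives were the likelihood ratio test, DESeq2 1.42.0, its size factors, no filter, surrogate variables (sva 3.50.0), removal of a GC trend, a replicate block and leaving out each library. The scripts were tested on simulated data. A floor of 3 counts was used for detection, and it covers counting error only.

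The members and gene lists were chosen with earlier results of these data known. Values are given in full for members called in any contrast and, by role, for those with the highest or lowest mean CPM or the largest fold change at a mean of 10 counts or more. Cd74 and other members outside this rule were named after their values were seen.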

Additional observations from a re-analysis of the deposited data

Results flagged for a closer look

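Of the 54 wider pathway genes tested in both populations, 2 passed for a different change in at least 1 of 6 contrasts, beside 1.32% of all genes. In them 3 differences between the populations in the change from 0w passed the test of the difference itself (edgeR, Lrig1 GL minus Lgr5 GL on the log2 scale). They were 1.95 for Jak1 at 8w pw1 (adjusted p = 0.0393), 2.07 for Pdia3 at 1w pw2 (adjusted p = 0.0252) and 2.16 for Jak1 at 1w pw2 (adjusted p = 0.0489). These calls were lost without 21, 8 and 32 of the 36 libraries taken singly.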

How the results depend on the processing

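Counts of members called moved as follows, and the shares of all genes called under the alternatives are not given. Across the time course, the 1 member of Lrig1 GL cells became 3 with the likelihood ratio test and 0 with surrogate variables, with the GC trend removed, with only the groups that carry the labels' replicate numbers (chosen after seeing the data) and with the replicate block in those groups, and the 1 of Lgr5 GL cells became 4 with the likelihood ratio test and with DESeq2 (Ddx58, Psmb8 and H2-Ab1 added) and 0 with surrogate variables. Against 0w, the 0 of Lrig1 GL cells became 2 and 1 with the likelihood ratio test and DESeq2, and the 1 of Lgr5 GL cells became 3 with DESeq2 and 0 with surrogate variables. After the second wound, the 0 became 1 with either tool in Lrig1 GL cells, and 1 and 2 in Lgr5 GL cells. Differences of changes went from 0 to 1 and 3, and differences of levels from 3 to 5 with the likelihood ratio test, 1 with surrogate variables and 0 with the replicate block, which was fitted only in the groups with the labels' replicate numbers. There the calls at 0w, 2w pw1 and 8w pw1 were not run, and the 2 at 1w pw2, Ifitm3 and Tap2, passed without the block and not with it (edgeR adjusted p = 0.130 and 0.349). Leaving out single libraries gave 0 to 1 and 1 to 1 across the course, 0 to 1 and 1 to 2 against 0w, 0 to 0 after the second wound in each population, 0 to 1 for differences of changes and 1 to 5 for differences of levels. Of the wider pathway genes, 9 of 54 passed for level at 1 or more time points, beside 20.3% of all genes. With surrogate variables 4 of their differences reversed. They were Psme2 at 4w pw1 (1.33 to -0.26), Pdia3 at 8w pw1 (0.842 to -0.32) and Canx at 8w pw1 (1.45 to -0.52) and 1w pw2 (1.41 to -0.33). The cause was not tested. Deviations of libraries with the same number had a mean r of 0.00369 over 9 pairs in Lrig1 GL cells (-0.0576 to 0.125). In Lgr5 GL cells the mean r was -0.0155 over 3 pairs (-0.0716 to 0.0174). So few pairs cannot show whether libraries with the same number share mice or a batch. Few counts limit the precision of the rarer effectors, and depth and low expression cannot be told apart there.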
